A study of Homo sapiens with 8 samples.

Results

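Unchallenged ASH1L-/- cells were compared with unchallenged wild-type (WT) cells by the assay for transposase-accessible chromatin with sequencing (ATAC-seq). Both genotypes were U2OS, a human osteosarcoma line, and each genotype gave 2 libraries of cells that had received no UV light. The ASH1L-/- cells had been made with CRISPR/Cas9 guides against exons of ASH1L and grown from individual colonies, and the sources used here do not say whether both knockout libraries came from 1 clone, so that a difference between a clone and the parental line cannot be told apart from the loss of ASH1L. All cells, WT included, were treated with DNase before harvest, and nuclei were tagmented by the Omni-ATAC procedure with the transposase Tn5. The other 4 of the 8 samples, which were the same genotypes 3 h after 20 J/m2 of UV-C, served here only as libraries that took no part in choosing sites. The regions called accessible in the 4 unchallenged libraries were merged wherever they overlapped by at least 1 bp, which gave 423696 union sites. A site was knockout-specific when both knockout lists and neither WT list held a region there, which was so for 9653 sites, and WT-specific in the reverse case, which was so for 8162 sites. A further 66716 sites had a region in all 4 lists.

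ASH1L is a histone methyltransferase of the trithorax group, whose best-known mark is dimethylation of lysine 36 on histone H3, and it works with the chromodomain protein MRG15. Trithorax proteins keep developmental genes such as the HOX genes active and oppose the Polycomb repressors. In ATAC-seq the transposase cuts and tags DNA that nucleosomes do not cover, so that promoters, enhancers and other sites bound by transcription factors appear as peaks of reads. AP-1, the FOS and JUN family of transcription factors, binds many enhancers in adherent cells such as U2OS.

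The 2 knockout-specific sites and 1 WT-specific site printed here were among those with the highest fold enrichment of the sites that recurred in both UV lists of their own genotype and in neither of the other and whose printed stretch touches no exon. Each sequence covers 151 bases around the summit, is given on the plus strand of hg38, and carries in capitals any match, on either strand, to the short motifs searched: TGANTCA for AP-1, GGAATG for TEAD, TGTGGT for RUNX, AGGGGGCGC for CTCF, CCGGAAGT for ETS and GGGCGGG for SP/KLF factors. The knockout-specific sites were, in order, between genes, 21405 bp from the start of SPATA31C2 (chr9:88113505-88113655) and in an intron of the adhesion gene NECTIN2 (chr19:44876024-44876174).
SPATA31C2: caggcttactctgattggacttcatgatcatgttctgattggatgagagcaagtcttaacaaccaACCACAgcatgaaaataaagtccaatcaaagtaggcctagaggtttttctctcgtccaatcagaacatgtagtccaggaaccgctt
NECTIN2: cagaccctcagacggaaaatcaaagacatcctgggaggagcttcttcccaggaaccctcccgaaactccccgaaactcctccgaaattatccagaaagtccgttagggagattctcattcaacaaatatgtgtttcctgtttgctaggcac

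The WT-specific site was in an intron of CLASP1, which encodes a microtubule plus-end protein (chr2:121521554-121521704). The capitals mark AP-1 letters in the CLASP1 sequence and RUNX letters, on the minus strand, in the SPATA31C2 sequence.
CLASP1: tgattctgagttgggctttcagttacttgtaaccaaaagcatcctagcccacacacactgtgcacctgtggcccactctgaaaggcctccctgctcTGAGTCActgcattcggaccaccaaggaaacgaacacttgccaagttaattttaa

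The 4 lists differed in depth, most of all between the 2 knockout libraries. The lowest background in a list, which is the mean number of fragments over a base of the genome, was 2.10 in WT replicate 1 and 1.74 in WT replicate 2, and it was 5.87 in knockout replicate 1 and 1.39 in knockout replicate 2. The lists held 178662 and 189651 regions in WT and 220783 and 158198 in the knockout, so knockout replicate 1 was the longest list and knockout replicate 2 the shortest. All 4 lists held regions down to a -log10 p of 2.0, a permissive limit. Markers of the labelled cell type were open: 11 of 15 osteoblast and mesenchymal genes had a promoter region in all 4 lists, COL1A1, RUNX2 and SPARC among them, while the blood cell markers PTPRC, CD3E, GATA1 and LYZ had none in any list.

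ASH1L itself (ENSG00000116539.14, chromosome 1, 155335268 to 155563162, minus strand) kept an open promoter in the knockout. Fold enrichment at the promoter, the pileup of fragments over the local background, reached 9.80 and 12.5 for WT and 11.9 and 11.4 for the knockout, and the genotypes overlapped. A promoter peak does not test the deletions, which lie further into the gene. Over the whole gene there were 14 and 14 regions in the WT lists against 4 and 3 in the knockout lists, and 11 and 9 against 4 and 9 after UV. Most regions of the WT lists in the gene were in 1 list each, so the WT replicates also disagreed there, and the regions held by 1 WT list had values from 2.19 to 4.84. The only WT-specific site in ASH1L was intronic (chromosome 1, 155466916 to 155467513), with fold enrichment of 4.10 and 4.38, and it had a region in all 4 UV lists. The 5 Mb window around ASH1L had 25 WT-specific and 8 knockout-specific sites among 804, and its local background was lower in the knockout by 0.55 on the log2 scale without UV and by 0.49 after UV.

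Genotype-specific sites were a small share of the union. Knockout-specific sites were 2.28% and WT-specific sites 1.93% of all union sites, and sites open in all 4 lists were 15.7%. Sites in a single list made up 66.9% (283572 sites): 68800 and 70587 in the WT lists, and 95185 and 49000 in the knockout lists. By genotype, 139387 sites were in 1 WT list only and 144185 in 1 knockout list only. Each of these counts joins 2 patterns over the 4 lists, whereas a specific class is 1 pattern. Of the sites found in both knockout lists, 10.7% were absent from both WT lists, and of those in both WT lists, 9.45% were absent from both knockout lists. With 2 samples against 2, an exact permutation test cannot give a p below 0.33, so no site carries a test of presence. Cutting every list to 158198 regions, the length of the shortest, gave 7778 knockout-specific and 7091 WT-specific sites. Keeping only regions with q at or below 0.01 gave 4714 and 4951, so the order of the genotypes changed. Because a site had to be in both lists of a genotype, leaving out 1 list moved these counts most: without knockout replicate 1 or 2 there were 58653 or 104838 knockout-specific sites and 16449 or 11368 WT-specific sites, and without WT replicate 1 or 2 there were 13504 or 19710 knockout-specific and 78749 or 76962 WT-specific sites.

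Most specific sites were weak. The median fold enrichment of knockout-specific sites was 2.47 and 3.28 in knockout replicates 1 and 2, at the 45.1 and 35.4 percentiles of those lists. WT-specific sites had medians of 3.06 and 3.18 in WT replicates 1 and 2, at the 42.8 and 41.4 percentiles. Sites shared by all 4 lists reached medians of 5.11 to 7.35, so the specific sites lay well under the level of the shared ones. A specific site spanned a median of 365 bp in the knockout and 352 bp in WT, against 648 bp for a shared site. Only 147 knockout-specific sites (1.52%) and 99 WT-specific sites (1.21%) stood in the upper quartile of both lists that held them, compared with 44.6% of shared sites. The rule itself favours these contrasts, since shared sites had to be called in all 4 lists and specific sites had to go uncalled in 2.

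A subset of specific sites was strong without UV in both libraries of 1 genotype and had a region in both of its UV libraries. These sites had no region in any library of the other genotype. The strongest of these in the knockout, near SPATA31C2 on chromosome 9, had a fold enrichment of 13.8 and 11.9 without UV and of 16.2 and 12.5 after UV. The NECTIN2 intron had 10.1 and 11.5 without UV and 11.04 and 8.48 after UV. The promoter of DNAJC18, which encodes a DnaJ-type co-chaperone (chromosome 5, 139439230 to 139439857), had 7.68 and 14.3 without UV and 11.8 and 15.7 after UV. No WT list held a region at these sites. A site between genes, with the start of BRINP3 nearest at 1076432 bp, had 9.61 and 11.2 without UV and reached 14.7 and 18.5 after UV. The other 6 of the 10 sites so ranked were between genes nearest to CEP44, ZNF718, POU5F1B, TRPS1 and LONRF3 and in an intron of the kinesin gene KIF26B, with values between 5.24 and 12.3 without UV. In all, 1 of the 10 lay at a promoter, 2 in gene bodies and 7 between genes.

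The WT counterparts were of like strength without UV. An intron of TUT7, which encodes a terminal uridylyltransferase, had a fold enrichment of 15.2 and 10.2 without UV and of 5.38 and 6.26 after UV, with no region in any knockout list. A site between genes, with the start of the delta-catenin gene CTNND2 nearest at 670148 bp, had 9.19 and 14.3 without UV and 13.7 and 14.1 after UV. The CLASP1 intron had 7.58 and 18.2 without UV and 10.8 and 17.9 after UV, so that its WT replicates differed by more than those of TUT7. A site in the promoter of the zinc finger gene ZSCAN31 (chromosome 6, 28335352 to 28335942) had 9.46 and 13.2 without UV and 9.22 and 11.5 after UV. ZSCAN31 also had another promoter region, open in all 4 lists, so the gene was not without an open start site in the knockout. The other 6 sites were between genes nearest to TPTE, the cadherin gene CDH6, MTMR8, the RAS pathway inhibitor SPRED2 and the natriuretic peptide receptor gene NPR3 and in an intron of the glypican gene GPC6, with values between 5.81 and 14.2 without UV. Plotting each list's value shows the spread between replicates at these sites.

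**Figure D1:**
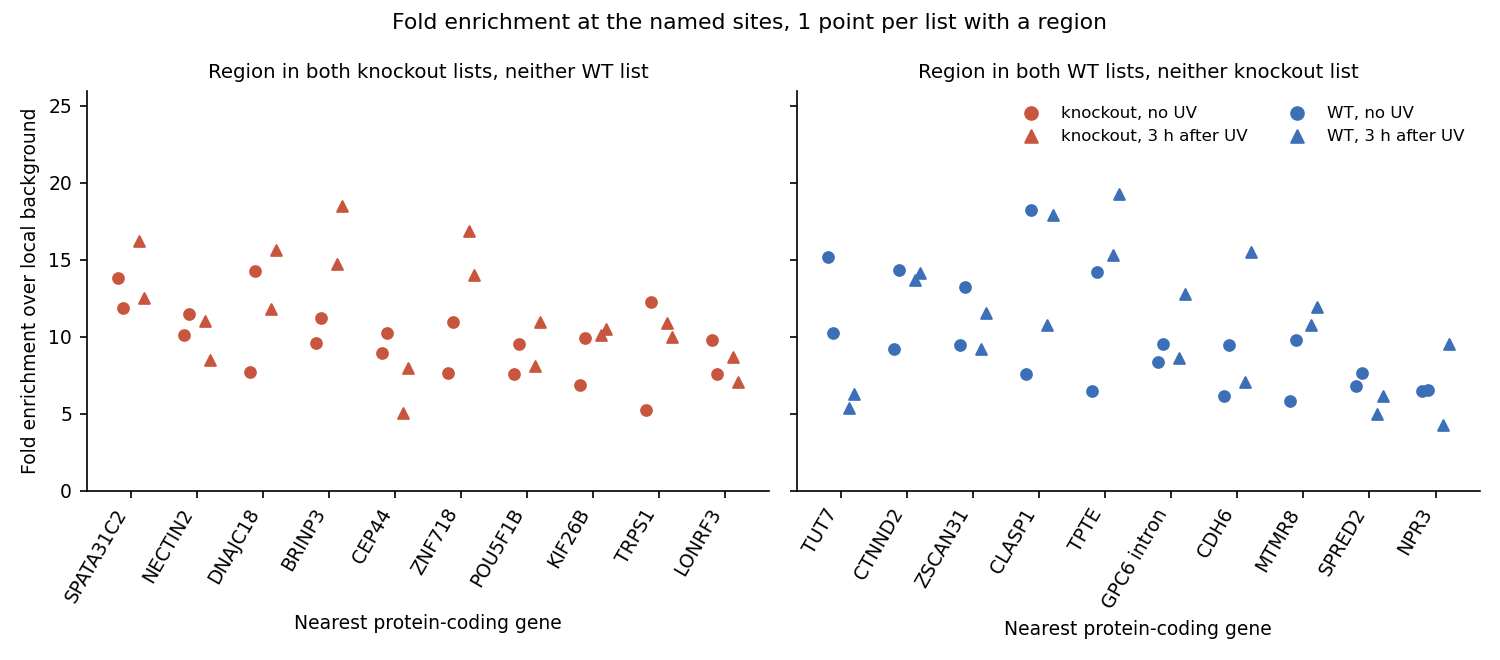
Fold enrichment over the local background (vertical axis) at the 10 knockout-specific (left) and 10 WT-specific (right) sites that recurred after UV, named by the gene whose start site is nearest or, for GPC6, by the intron that holds them. Circles are libraries without UV and triangles libraries 3 h after UV, red for the knockout and blue for WT, and a list without a region has no point. Every point on the left is red and every point on the right is blue, since the sites were chosen that way.

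The UV lists, which played no part in defining the sites, showed how far the 2 classes recurred in other libraries of the same cells. Knockout-specific sites had a region in 40.6% and 46.9% of cases in the 2 knockout UV lists and in 23.5% and 29.6% in the 2 WT UV lists. The knockout lists lay above the WT lists without overlap, by a mean of 17.2 percentage points. Over all union sites the 4 UV lists held between 27.2% and 32.5%, with the knockout higher by 1.78 points. WT-specific sites were in 41.7% and 55.0% of cases in the WT UV lists and in 35.4% and 44.1% in the knockout UV lists. For this class the lists of the 2 genotypes overlapped, and the knockout mean was lower by 8.63 points. The 2 lists of 1 genotype were as far apart here as the genotypes were. Without WT replicate 1 or 2 in the definition the WT-specific difference shrank to -2.04 or -1.31 points, and without knockout replicate 1 or 2 it was -4.31 or -7.49. The knockout-specific difference without those lists was 15.9, 12.5, 4.93 and 5.12 points in the same order, so it was more than 3 times smaller when a single knockout list defined the class.

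Complete recurrence was less common. Of the knockout-specific sites, 1001 (10.4%) had a region in both knockout UV lists and neither WT UV list, 69 (0.715%) showed the reverse, and 37.6% had no region in any UV list. Of the WT-specific sites, 435 (5.33%) recurred in full and 88 (1.08%) were reversed. Over all union sites the 2 patterns made up 1.51% and 0.985%. The strong sites recurred most. The 147 knockout-specific sites of the upper quartile were in 92.5% and 96.6% of cases in the knockout UV lists, against 25.2% and 38.1% in the WT UV lists. The 99 WT-specific sites of the upper quartile were in 92.9% and 98.0% of cases in the WT UV lists but also in 63.6% and 78.8% in the knockout UV lists. The genotypes did not overlap at either set.

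**Figure D2:**
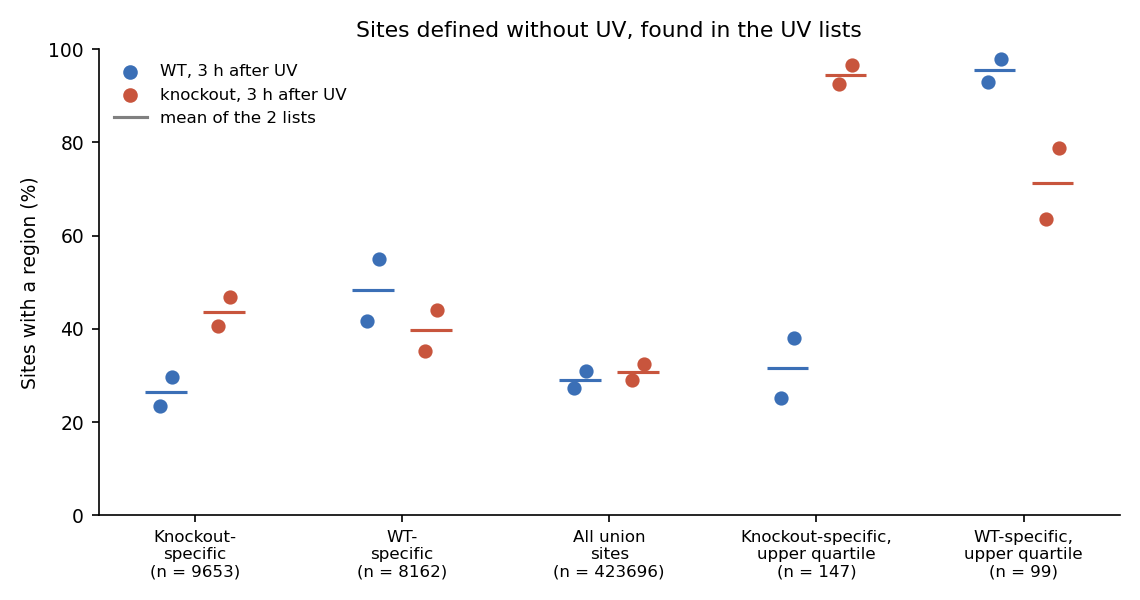
Share of sites with a region in each list 3 h after UV (vertical axis, percent), for sites defined in the unchallenged lists. Each point is 1 UV list, blue for WT and red for the knockout, and the short line is the mean of the 2 lists of a genotype. The red points stand above the blue ones for knockout-specific sites and furthest apart for the 147 of the upper quartile.

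Most specific sites lay away from promoters, as did most union sites. A protein-coding start site lay within 1 kb of the summit at 8.20% of knockout-specific and 8.65% of WT-specific sites, compared with 22.1% of shared sites and 9.01% of all union sites. Gene bodies held 38.8% of knockout-specific and 43.7% of WT-specific sites, compared with 43.1% of all union sites. Intergenic sites made up 53.0% and 47.7%, compared with 47.9% of all union sites. By gene, 13712 of 19970 protein-coding genes had a promoter region in all 4 lists. A promoter region in both knockout lists and neither WT list was found for 205 genes (1.03% of those examined) and the reverse for 160 genes (0.801%). The counts without 1 list ranged from 412 to 690 for the knockout and from 309 to 536 for WT. After UV, 123 and 147 of the 205 genes had a promoter region in the knockout lists and 63 and 82 in the WT lists, without overlap. Of the 160 genes, 63.1% had one in either WT list and 47.5% and 59.4% in the knockout lists.

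The 10 strongest promoter sites of each class differed in how they fared after UV. In the knockout the strongest after DNAJC18 was at DPF3, a reader of acetylated histones in the BAF remodelling complex (chromosome 14, 72893984 to 72894639), with fold enrichment of 7.48 and 8.59 without UV and 14.2 and 10.9 after UV, against no region and 2.72 in the WT UV lists. The promoter of IZUMO1, which encodes a sperm protein for gamete fusion (chromosome 19, 48746788 to 48747450), had 6.24 and 8.72 without UV and 13.3 and 11.4 after UV. That of the histone H2A gene H2AC8 (chromosome 6, 26216347 to 26217384) had 8.47 and 7.08 without UV and 7.70 and 8.03 after UV. The remaining sites were at REX1BD, ETV2, an ETS factor of early endothelial and blood cells, the kinase genes DMPK and CLK4, the adaptor gene SKAP2 and STEAP1B. All 10 had a region in both knockout UV lists, 6 had none in either WT UV list, and 2, REX1BD and CLK4, were open in both WT UV lists. DPF3 and SKAP2 also had another promoter region that was in all 4 unchallenged lists, whereas H2AC8 and IZUMO1 had none in WT.

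At WT-specific promoters the UV lists of the knockout more often held a region. ESRRG, an orphan nuclear receptor gene (chromosome 1, 217089661 to 217090128), had 5.81 and 9.86 in WT without UV, and after UV it had 6.52 and 9.74 in WT and 7.54 and 5.77 in the knockout. Another region of its promoter was in all 4 unchallenged lists. SYCE1, which encodes a protein of the meiotic synaptonemal complex (chromosome 10, 133565248 to 133566014), had 6.27 and 5.54 in WT without UV and 7.03 and 10.0 after UV, with no region in a knockout UV list. The others were at ZDHHC20, TRIM66, KCNJ15, TTF2, the adaptor gene BCAR1, PRUNE1 and PLD5. Of the 10, 8 had a region in both WT UV lists, and 2, ZSCAN31 and SYCE1, had none in either knockout UV list, while 6 had a region in both.

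Genes tied to ASH1L by function were read against all protein-coding genes, of which 68.7% had a promoter region in all 4 lists. Of 23 genes for methyltransferases of lysines 4 and 36 on histone H3 and their partners, 21 had a promoter region in all 4 lists and none was specific to a genotype. The partner gene MORF4L1, which encodes MRG15 and was named outside the rule, had promoter fold enrichment of 8.88 and 11.3 in WT and 8.62 and 10.97 in the knockout. Of 35 nucleotide excision repair genes, 34 had a promoter region in all 4 lists and 1, GTF2H2, had none in any. Of 42 HOX and MEIS genes, 27 were open in all 4 lists and 3 in none, and 1, HOXA3, had a region in the knockout lists only, with low values of 2.01 and 2.18. After UV, HOXA3 had 2.41 in WT replicate 2 and 2.65 and 1.97 in the knockout. Polycomb genes (11 of 17 in all 4 lists), AP-1 genes (11 of 12), epithelial markers (8 of 10) and endothelial markers (2 of 7) had no genotype-specific promoter.

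The exceptions were few. Among 20 cancer-testis genes, which are silent in most adult tissues outside the germ line, MAGEA10 and PAGE5 had a promoter region in the knockout lists only and 8 had none in any list. MAGEA10 had 3.79 and 3.77 in the knockout without UV, and after UV it had 3.97 and 5.44 in WT and 4.93 and 6.55 in the knockout, so both genotypes then had a region. PAGE5 had 2.77 and 3.35 in the knockout without UV and 4.06 and 4.195 after UV, with no region in any WT list. The blood marker CD14 had weak regions of 1.94 and 2.30 in the knockout lists, and after UV it had 2.99 in WT replicate 2 and 4.12 and 2.89 in the knockout. Against a share of 1.03% over all genes, 1 of 42, 2 of 20 and 1 of 10 are small counts.

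At the sites open in all 4 lists no difference passed the test. limma on log2 fold enrichment, quantile normalised, called 0 of 66716 sites (0%) at an adjusted p below 0.05, with a lowest adjusted p of 0.530. With 2 samples a group this test can call only large differences, so a count of 0 does not show that the sites were alike. At an unadjusted p below 0.05 there were 5040 sites (7.55%), 2381 higher and 2659 lower in the knockout. The median size of the difference was 0.21 on the log2 scale with a median standard error of 0.25, and 95% of sites lay between -0.72 and 0.72, so that differences over 2-fold were found at 772 sites (1.16%). The difference between the genotypes was tested against that after UV at 60366 sites in all 8 lists, where the limma interaction called 0 sites at an adjusted p below 0.05, and 2427 were below 0.05 unadjusted. Across shared sites the log2 fold enrichment of WT replicates had a Pearson correlation of 0.79 and that of knockout replicates 0.86, while pairs of 1 WT and 1 knockout library lay between 0.76 and 0.83.

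The UV lists again served as libraries the test had not used. Of the 4370 sites below an unadjusted p of 0.05 that also had a region in all UV lists, 77.9% differed in the same direction after UV, compared with 59.9% of all 60366 such sites. The 2 genotypes did not overlap after UV, in that same direction, at 48.1% of them and at 25.4% of all sites. The sites higher in the knockout had a median log2 difference of 0.74 without UV and 0.28 after UV. Those lower had -0.74 and -0.25. These sites were chosen by their values without UV, so smaller differences are likely in any lists not used for the choice. The smaller medians therefore do not show that UV reduced the difference between the genotypes.

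Single sites among those with the lowest p, named here after their values were seen, gave examples of both outcomes. A site 26952 bp from the start of ZNF354B on chromosome 5 (178832449 to 178833343) had fold enrichment of 2.26 and 4.38 in WT and 16.7 and 14.9 in the knockout (log2 difference 2.52 ± 0.30 SE, limma adjusted p = 0.530). After UV it had 3.40 and 4.63 in WT and 16.7 and 14.1 in the knockout, the same order and no overlap. The promoter of the kinase gene DYRK1B on chromosome 19 (39833463 to 39833962) had 2.93 and 3.23 in WT and 8.37 and 13.6 in the knockout, and after UV 3.89 and 3.39 against 8.58 and 8.79. In the other direction, a site in the promoter of LRRC8E, a subunit gene of volume-regulated anion channels (chromosome 19, 7893284 to 7893835), had 8.34 and 9.69 in WT and 2.17 and 2.55 in the knockout, and after UV 12.4 and 12.9 against 7.23 and 6.24. Another region of the LRRC8E promoter reached 4.28 and 6.68 in the knockout without UV. At these 3 sites the genotypes were apart in both conditions, although none passed the adjusted threshold. Among the 10 sites with the lowest p, only those nearest to OXGR1 and VGLL4 overlapped after UV. The site nearest to OXGR1 had 18.3 and 16.9 in WT and 4.08 and 4.18 in the knockout, and after UV 6.23 and 19.3 against 4.06 and 8.65, where the genotypes overlapped. That nearest to VGLL4 had 8.56 and 10.51 in WT and 2.58 and 2.64 in the knockout, and after UV 3.80 and 15.1 against 2.74 and 4.35, again with overlap. At the site nearest to FAM124B the values were 2.58 and 3.29 in WT and 8.35 and 12.3 in the knockout. They came closer after UV, to 3.97 and 2.99 against 4.93 and 4.46, without overlap. The sites nearest to SLC4A7, SNTB1, COX7B2 and SLC13A1 also stayed apart after UV, with a list without a region taken as lower.

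The gene lists had no called promoter site either. Over all 14719 shared promoter sites the median log2 difference was 0.02 and 576 were below an unadjusted p of 0.05. The list medians were 0.11 for the methyltransferase genes (1 of 23 sites below 0.05), 0.08 for Polycomb genes (1 of 14), -0.03 for HOX and MEIS genes (2 of 26), 0.03 for nucleotide excision repair genes (1 of 37) and 0.02 for AP-1 genes (1 of 16). An internal promoter of NSD2, a methyltransferase of lysine 36 (chromosome 4, 1939987 to 1940715), had the lowest p of all these, and it and ERCC5 are named after their values were seen. Its fold enrichment was 8.71 and 8.40 in WT and 3.35 and 3.77 in the knockout (log2 difference -1.05 ± 0.24 SE, limma adjusted p = 0.530). After UV it had 5.95 and 13.0 in WT and 2.61 and 2.88 in the knockout. Elsewhere at NSD2 start sites, promoter regions reached 6.46 and 7.57 in the knockout without UV. The promoter of the repair endonuclease gene ERCC5 had 15.1 and 19.2 in WT and 6.41 and 11.3 in the knockout (adjusted p = 0.605 by limma), and 16.7, 20.8, 17.7 and 13.9 after UV, where the genotypes overlapped.

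Specific sites were spread unevenly over the chromosomes. Knockout-specific sites made up 3.6% of the union sites on chromosome 4 and 3.29% on chromosome 15, against 1.59% on chromosomes 1 and 16. WT-specific sites made up 3.77% on chromosome 13 and 3.57% on chromosome X, against 1.32% on chromosome 15. On chromosome 4 there were 799 knockout-specific and 335 WT-specific sites, and on chromosome 1 there were 554 and 791.

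**Figure D3:**
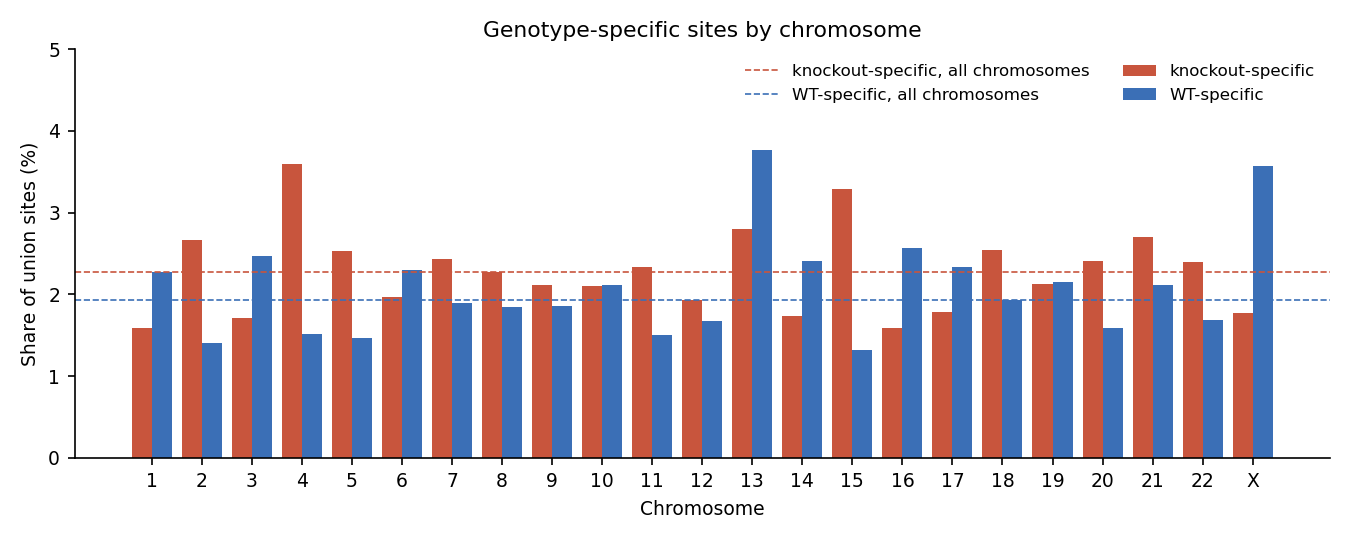
Share of the union sites of each chromosome (vertical axis, percent) that were knockout-specific (red bars) or WT-specific (blue bars), with dashed lines at the shares over all chromosomes, 2.28% and 1.93%. The red bar is highest on chromosomes 4 and 15 and the blue bar on chromosomes 13 and X.

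Within chromosomes the sites gathered in stretches. The 5 Mb window of chromosome 4 from 110000001 to 115000000 held 94 knockout-specific and 6 WT-specific sites among 1150 union sites, with 196 and 233 sites in the WT lists and 818 and 475 in the knockout lists. The window from 105000001 on the same chromosome held 56 and 0, and that from 80000001 held 57 and 8. In the reverse direction, the window of chromosome 13 from 95000001 held 39 WT-specific sites and 1 knockout-specific site among 250, with 156 and 188 sites in the WT lists and 55 and 63 in the knockout lists. The windows of chromosome 14 from 65000001 and from 60000001 held 50 against 13 and 36 against 5. Genes were chosen after the values were seen. On chromosome 4, BMPR1B, a bone morphogenetic protein receptor, had 15 against 1 among 108 union sites, and ANK2, an ankyrin, had 10 against 0 among 143. ALDH1A2, a retinoic acid-producing enzyme on chromosome 15, had 13 against 0 among 176. FRMD4A had 0 against 9 among 157, and ZFHX3, a homeobox factor, had 0 against 8 among 152. Over all union sites the shares were 2.28% and 1.93%.

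The local background moved with these stretches. This background is the read level around a peak that the caller compares the peak with, and it was expressed for each list relative to its median over shared sites. In the chromosome 4 window from 110000001 it stood at -0.75 and -0.72 on the log2 scale in the WT lists and at 0.34 and 0.28 in the knockout lists, a difference of 1.05 without UV and of 1.02 after UV. Fold enrichment at the shared sites of that window, which divides by this background, differed by 0.21. Across the 569 windows with at least 20 shared sites, the background difference and the excess of knockout-specific over WT-specific sites had a Pearson correlation of 0.65 and a Spearman correlation of 0.70, as a description over windows that come from the same 4 libraries. Leaving out 105 windows whose background sat at the minimum of a list gave 0.80 and 0.77 over 464 windows.

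The same windows stood out after UV. The background difference without UV and that after UV had a Pearson correlation of 0.89, and all 136 windows past 0.25 in either direction, 57 higher and 79 lower in the knockout, had the same sign after UV. The longest run of neighbouring windows with a higher background in the knockout was on chromosome 5 from 110000001 to 185000000, with 408 knockout-specific and 116 WT-specific sites. The longest runs with a lower background were on chromosome 1, from 200000001 to 250000000 with 68 and 224, and from 145000001 to 190000000, the run that holds ASH1L, with 40 and 211.

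**Figure D4:**
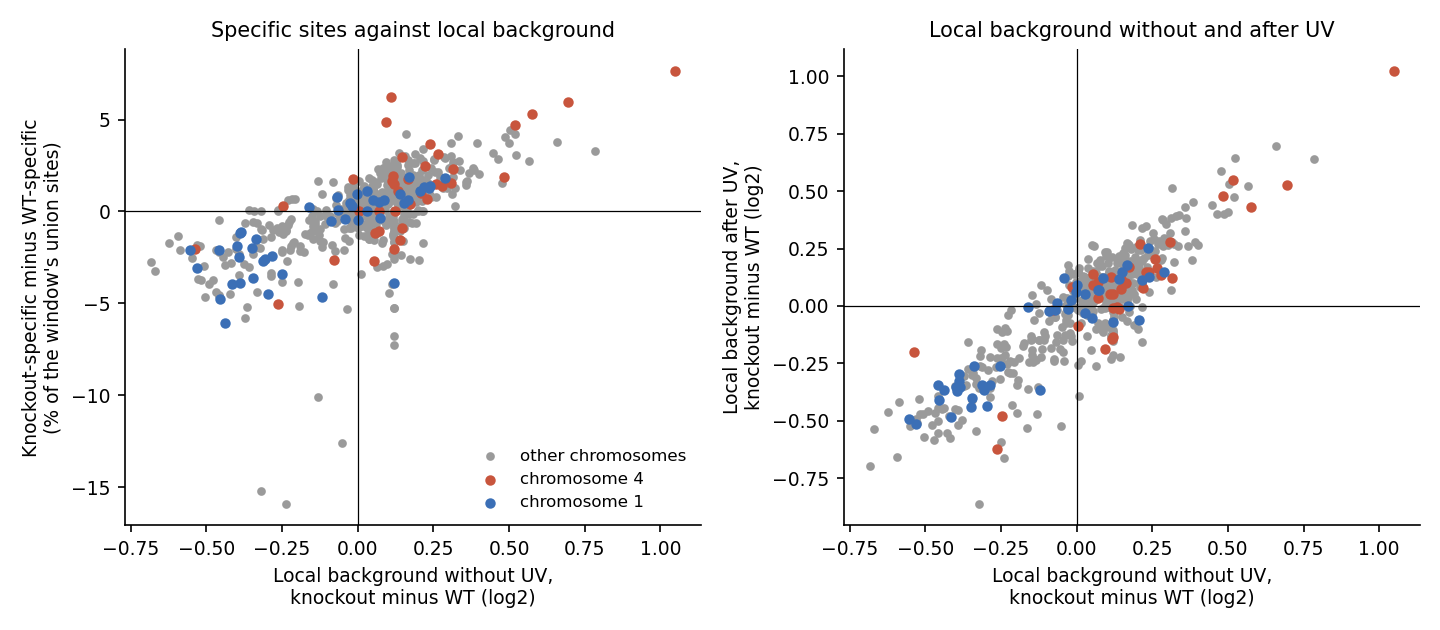
Each point is a 5 Mb window with at least 20 shared sites, with chromosome 4 in red and chromosome 1 in blue. Left, the share of knockout-specific minus WT-specific sites (percent of the union sites of the window) against the local background of the knockout minus WT without UV (log2), and right, the same background difference after UV (log2) against that without UV. Points rise from lower left to upper right in both panels, apart from a column near 0.12 made by windows at the minimum background of the lists, and the highest point on the right is the chromosome 4 window at 1.05 and 1.02.

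Over windows grouped by background, the ratio of the 2 classes followed it, though not on every chromosome. Chromosomes 13 and X, with the highest WT-specific shares, had a background difference, knockout minus WT, of 0.06 and 0.10 without UV. After UV it was -0.02 and 0.01. Windows at the minimum background in all 4 lists had a median difference of 0.12, so these small positive values do not show a higher background. Chromosomes 4 and 15, with the highest knockout-specific shares, had a difference of 0.22 and 0.25 without UV and of 0.15 and 0.26 after UV. In the 253 windows whose background was at least 0.1 higher in the knockout, 2.86% of union sites were knockout-specific and 1.36% WT-specific. In the 132 windows at least 0.1 lower the shares were 1.33% and 3.02%. In the 184 windows within 0.1 they were 2.22% and 1.83%, near the 2.28% and 1.93% over all sites. DNA copy number and broad accessibility both enter this background and cannot be told apart here, and the part of the background in the counts of specific sites was not tested. In all 184 windows within 0.1, knockout-specific sites were in 40.3% and 47.7% of cases in the knockout UV lists. In the WT UV lists they were in 26.2% and 31.8%, again without overlap. WT-specific sites of those windows were in 39.8% and 52.4% of cases in the WT and 35.5% and 43.9% in the knockout UV lists, and the genotypes overlapped.

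The classes also differed in their AP-1 letters. Within 201 bases around the summit, TGANTCA was found at 9.71% of knockout-specific sites (95% Wilson interval 9.13 to 10.3%) and at 16.1% of WT-specific sites (15.4 to 16.9%), against 22.1% of shared sites and 11.1% of all union sites. These intervals cover counting over sites only and not the spread between libraries. All sites of a list held the letters in 14.6% and 15.6% of cases in WT and 13.2% and 15.4% in the knockout, so the lists as wholes differed by less than the classes. Among sites in the upper 50% of both lists by fold enrichment the shares were 11.1% for the knockout (1709 sites) and 22.97% for WT (1576 sites). With every list cut to 158198 regions the shares over each whole class were 10.8% and 18.2%.

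The order was the same in each band of background and each kind of location. In windows with a higher, like and lower background in the knockout, 10.3%, 9.62% and 7.59% of knockout-specific sites had AP-1 letters, and 16.2%, 15.2% and 16.6% of WT-specific sites. In gene bodies the shares were 9.14% and 16.6%, between genes 10.7% and 16.9%, and at promoters 6.19% and 9.35%. The UV lists gave the same order at other sites: among union sites that were not genotype-specific without UV, 5310 had a region in both knockout UV lists and neither WT UV list and 11.9% of them held the letters (11.1 to 12.8%), while 3670 showed the reverse and 17.2% held them (16.03 to 18.5%). At sites open in all 8 lists the difference was slight, since the 14018 with AP-1 letters had a median log2 difference, knockout minus WT, of -0.01 without UV and -0.02 after UV, and the 46348 others had 0.01 and 0.02.

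**Figure D5:**
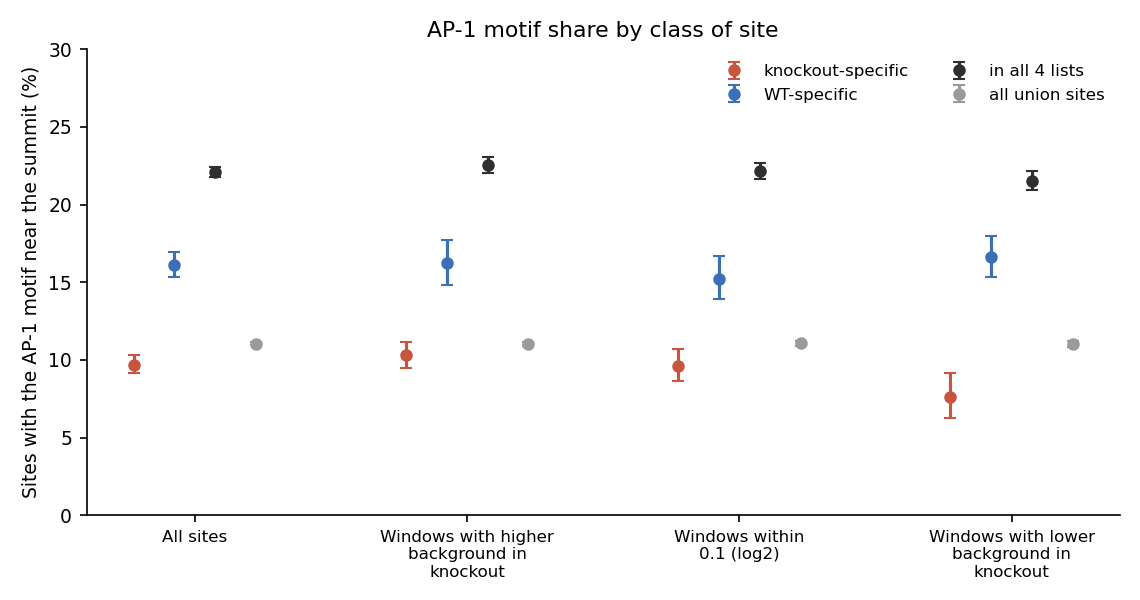
Share of sites with the AP-1 letters within 201 bases around the summit (vertical axis, percent) for knockout-specific (red), WT-specific (blue), shared (black) and all union sites (grey), over all windows and in the 3 bands of background difference. Bars are 95% Wilson intervals over sites. The blue points lie between 15.2% and 16.6% and the red points between 7.59% and 10.3%.

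The other letters differed between the classes by less than 1 percentage point. TEAD letters were at 14.3% of knockout-specific and 14.7% of WT-specific sites, RUNX letters at 17.5% and 17.5%, and both shares were near the 13.6% and 16.7% of all union sites. At the sites specific to 1 genotype only after UV, however, TEAD letters were at 17.2% for the knockout and 12.3% for WT, a gap of nearly the size of that for AP-1 and in the opposite direction. SP/KLF letters were at 2.97% and 2.14% compared with 2.78%, ETS letters at 0.280% and 0.123% compared with 0.270%, and CTCF letters at 0.249% and 0.196% compared with 0.178%. As a ratio the classes were further apart in ETS than in AP-1 letters, on few sites. Shared sites held SP/KLF letters at 7.98%, along with their larger share of promoters. The median GC content was 49.3% at knockout-specific and 47.3% at WT-specific sites, with 47.8% over all union sites. A match of such short letters is a description of the sequence and not evidence of binding.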

How the data were processed

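The authors trimmed paired-end reads with cutadapt 1.9.1, aligned them with Bowtie2 2.4.5 to hg38 and called peaks in each sample separately with MACS2 2.2.7.1, per the submitters' processing notes and the study's methods. SAMtools 1.7, bedtools 2.29.2 and Picard were also named. The deposited lists give for each peak a score, the fold enrichment ratio over local background, and -log10 p and -log10 q values. The score that the authors deposited was not used in a comparison. No read counts were used, and no columns of the authors' own comparisons.

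Peak records with the same interval were treated as 1 region, with the highest fold enrichment of its records. Pileup and background were recovered from fold enrichment and -log10 p. Union sites required at least 1 bp of overlap. Shared sites were tested with limma 3.58.1 in R 4.3.3 (quantile normalisation, Benjamini-Hochberg adjustment), which was also tested on simulated data. The test of a difference after UV against without UV was a limma interaction term over all 8 lists. Promoters were within 1 kb of a protein-coding start site of GENCODE release 44, and windows were 5 Mb. Correlations across sites and windows are descriptions, since these are not independent replicates. Replicates are labelled as biological, and p-values measure only the spread between 2 samples a group. The replicate numbers were not used to pair the samples in the main fit. Deviations of same-numbered WT and knockout libraries had a correlation of 0.08, which cannot settle whether those libraries were prepared together. The precision of a presence call depends on the depth, which is given per list.

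The sites, gene lists and tests were chosen with earlier results of these data known. Named were ASH1L, for each genotype the 10 strongest specific sites that recurred in full after UV and the 10 strongest promoter sites by mean percentile of fold enrichment, the members of gene lists open in 1 genotype only or past the test, and the 3 windows with the highest excess in each direction. A site carries the name of the nearest protein-coding start site. The sequences of some of the strongest sites are not reported here. Alternatives were q below 0.05, q at or below 0.01, equal numbers of regions, 50% overlap, promoters of 2 kb, placement by midpoint, 10 Mb windows, other scalings and filters for limma, a replicate block and leaving out each sample.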

Additional observations from a re-analysis of the deposited data

How the results depend on the processing

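limma called 0 sites at an adjusted p below 0.05 in every alternative that kept both samples of each group. On shared sites these alternatives had 4616 to 7097 sites below 0.05 unadjusted, the lowest among the 61921 with q below 0.05 in all 4 lists. A fit of 140124 sites in at least 2 lists, with absent values set to the lowest of the list, had 17390. The interaction likewise called 0 with a replicate block and with median scaling. These counts say little about stability, since with 2 samples a group only large differences can be called. Fits without 1 sample of a group were also run, and their counts are not given. There limma took the spread from the groups that kept 2, so the lone sample is assumed to vary like them. With the replicate block both counts were 0, and 6105 and 2645 sites were below 0.05 unadjusted. With q at or below 0.01 there were 4714 knockout-specific and 4951 WT-specific sites, and the recurrence difference of knockout-specific sites rose to 23.1 points. Leaving out 1 sample gave 13504 to 104838 knockout-specific and 11368 to 78749 WT-specific sites, and recurrence differences of 4.93 to 15.9 and -7.49 to -1.31 points. Promoter shares of knockout-specific and WT-specific sites were 11.8% and 13.0% with promoters of 2 kb and 8.90% and 9.58% with q below 0.05. Requiring regions to cover at least 50% of a site, an alternative chosen after seeing the data, gave 9150 and 8464 sites. So were the alternatives for promoters by gene, AP-1 shares, named sites and windows. All 38 named sites kept their class with q below 0.05, q at or below 0.01 or equal numbers. These settings only remove weaker regions, so sites chosen as strong and without a region in the other genotype could hardly lose their class. Promoters in the knockout only fell from 205 to 132 with q at or below 0.01. AP-1 shares with q below 0.05 were 10.9% and 19.1%. The shallowest library, knockout replicate 2, limits which weak sites can be called in the knockout, and a region missing from a list may lie just under its p limit of 0.01.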
